A study of Homo sapiens with 6 samples.

Results

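The genes described here are 57 genes of the lysosome, chosen by name and by function: 32 soluble acid hydrolases and their cofactors, 10 proteins of the lysosomal membrane and 15 subunits or accessory proteins of the V-ATPase. They are 57 of the 60419 genes in the deposited tables, all 57 passed the filter on low counts, and the rule that chose them uses no measured value. The choice was made with earlier results of these data known, so it was not blind to them. The cells were 12Z, an immortalised human endometriotic line, grown in medium with 10% charcoal-stripped serum. One group received a myrrh extract (Myrrh), dissolved in DMSO, at 100 µg/mL for 12 h, and the other received DMSO, the solvent, with 3 libraries in each group. 12Z is 1 line, labelled wild type, and the labels do not say whether the libraries of a group came from separate cultures, so the p-values measure the spread between these libraries, which may be technical.

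Lysosomes break down proteins, glycans and lipids that reach them by endocytosis or autophagy. Their hydrolases work at acid pH, which the V-ATPase keeps by pumping protons across the membrane: its V1 sector in the cytosol splits ATP and turns a rotor, and its V0 sector in the membrane carries the protons. Membrane proteins shield the bilayer from digestion, move ions and export cholesterol and other products. Many of these genes hold in their promoters the so-called CLEAR element, an E-box that transcription factors of the MiT/TFE family (TFEB, TFE3, MITF) bind. Cathepsins, the lysosomal proteases, are also studied in endometriosis for their part in matrix turnover.

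The promoters are shown first, because an E-box recurs in them. RefSeq promoter windows (build GRCh38.p14, from 250 bases before to 50 after the gene start, 300 in all) were at hand for 40 of the 57 genes. Some gene symbols were listed with more than a single window. Only a single window per gene was searched, and how the motif counts depend on that choice was not tested. Both motifs searched, CACGTG and the longer TCACGTGA that contains it, read the same on both strands. CACGTG was found in the windows of 13 of the 40 genes (32.5%), against 9.91% of the windows of 11438 tested genes and 7.43% of all 27305 windows. TCACGTGA was found in 7 of the 40 (17.5%), against 1.88% of the tested genes' windows and 1.04% of all windows. The 7 genes were MCOLN1, LAMP1, GAA, CLN3, CTSA, ATP6V0D1 and ATP6V1G1, and the 6 with the shorter motif alone were ATP6V0B, CD63, CLCN7, CTSD, CTSF and NEU1. A match describes these letters and is not a binding site. Of the windows, 3 are given whole and 5′ to 3′, all from the plus strand, with either motif in capitals, because they hold the longer motif at least 2 times: MCOLN1 at chr19:7522374-7522673, LAMP1 at chr13:113296989-113297288 and GAA at chr17:80101331-80101630.
MCOLN1: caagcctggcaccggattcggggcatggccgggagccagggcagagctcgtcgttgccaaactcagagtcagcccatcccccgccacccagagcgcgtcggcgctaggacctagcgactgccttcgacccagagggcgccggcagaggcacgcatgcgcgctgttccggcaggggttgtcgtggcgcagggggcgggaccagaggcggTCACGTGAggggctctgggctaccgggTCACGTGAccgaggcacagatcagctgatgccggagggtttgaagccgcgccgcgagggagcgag
LAMP1: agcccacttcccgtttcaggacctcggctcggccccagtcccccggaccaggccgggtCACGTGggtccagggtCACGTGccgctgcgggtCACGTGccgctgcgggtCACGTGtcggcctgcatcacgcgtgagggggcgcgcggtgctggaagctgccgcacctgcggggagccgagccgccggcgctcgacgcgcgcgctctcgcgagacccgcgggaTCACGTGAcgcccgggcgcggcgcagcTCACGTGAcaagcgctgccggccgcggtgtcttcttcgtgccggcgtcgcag
GAA: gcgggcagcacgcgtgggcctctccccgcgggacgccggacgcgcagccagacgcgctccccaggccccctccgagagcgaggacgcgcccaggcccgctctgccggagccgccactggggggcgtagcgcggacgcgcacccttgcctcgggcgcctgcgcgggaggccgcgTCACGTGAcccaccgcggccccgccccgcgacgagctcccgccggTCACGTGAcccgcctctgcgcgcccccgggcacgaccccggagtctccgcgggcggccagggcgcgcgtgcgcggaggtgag

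LAMP1 had 6 copies of CACGTG, of which 2 stood within TCACGTGA, while MCOLN1 and GAA each had 2 copies, both within TCACGTGA. For 6 further genes the 30 bases around a motif, again in capitals, are printed 5′ to 3′ on the gene's own strand, because these genes span the 3 roles. They lie at chr16:28492058-28492087 (CLN3, minus strand), chr16:67481199-67481228 (ATP6V0D1, minus), chr9:114587699-114587728 (ATP6V1G1, plus), chr20:45891298-45891327 (CTSA, plus), chr11:1763957-1763986 (CTSD, minus) and chr6:31862930-31862959 (NEU1, minus).
CLN3: cgcgggtgctgTCACGTGAtccgacaaacg
ATP6V0D1: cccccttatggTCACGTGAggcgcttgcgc
ATP6V1G1: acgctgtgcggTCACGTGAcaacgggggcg
CTSA: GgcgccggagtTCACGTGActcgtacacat
CTSD: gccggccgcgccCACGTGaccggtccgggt
NEU1: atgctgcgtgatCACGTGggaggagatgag

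The leading G in the CTSA line is the end of a second CACGTG copy upstream. How the genes with and without these motifs differed between the groups is given after the results by role.

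Each library held 22454783 to 27588151 estimated counts, and log2 CPM over the tested genes correlated at 0.990 to 0.993 within groups and at 0.920 to 0.926 between them. Among keratins that mark epithelial cells, KRT8 was at 548 TPM with Myrrh and 771 TPM with DMSO. In the same order of groups, KRT18 was at 548 and 661 TPM and KRT19 at 97.8 and 150 TPM. KRT8, KRT18 and KRT19 were called lower with Myrrh. KRT7 was scarce, at 8.91 and 5.84 TPM, and was called higher. That call ended when counts were scaled by library totals (log2 fold change 0.39) and without DMSO replicate 2 (0.44). It also ended with limma on log2(TPM + 1) over every gene above 0 (0.50). MUC1 was at 7.35 TPM with Myrrh and 32.6 TPM with DMSO. CDH1 and EPCAM were low, CDH1 at 0.293 and 0.133 TPM and EPCAM at 2.54 and 1.12 TPM in the same order of groups. Of 12 epithelial markers, 8 were tested, 3 were higher and 5 lower with Myrrh, and the sum was 1173 to 1279.6 TPM with Myrrh, against 1610.0 to 1646 TPM with DMSO. Stromal markers were also present: all 12 were tested, 2 were higher and 10 lower with Myrrh, and their summed level was 2394 to 2523 TPM with Myrrh, against 5522 to 5658 TPM with DMSO. Of 12 macrophage and leukocyte markers, 3 passed the filter, AIF1, CD163, CD3E and C1QA were among those at 0 in every library, and the sum was 1.11 to 2.40 TPM with Myrrh and 3.69 to 4.87 TPM with DMSO. In bulk RNA, fewer cells of a type and less RNA per cell cannot be told apart.

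Most of the 57 genes had more transcripts with Myrrh, and the changes differed by role. Of the 57, 38 were higher and 14 lower with Myrrh at an adjusted p under 0.05 (quasi-likelihood F-test of edgeR, Benjamini-Hochberg over all tested genes), and 5 did not pass. Among all 16395 genes tested, 39.3% were higher and 39.1% lower, so the share of higher calls among the lysosomal genes, 66.7%, stood above the background and the share of lower calls, 24.6%, below it. At a change of at least 2-fold, 14 lysosomal genes were higher and 4 lower, against 11.3% and 18% of all tested genes. These counts depend on the processing: 8 were higher when scaled by library totals, and 1 was lower with limma on log2(TPM + 1). The calls over all tested genes moved as well. At 2-fold, 1859 were higher and 2955 lower in the main fit. Both directions together came to 4874 with library totals and 2933 with limma on the same genes. With library totals 41.8% of all calls at any fold change were higher. The median log2 fold change was 0.45 over the 57 genes and -0.02 over all tested genes. By role, all 10 membrane proteins rose, 13 of 15 V-ATPase genes rose and none fell, and the 32 hydrolases and cofactors divided into 15 that rose, 14 that fell and 3 that did not pass. For 52 of the 57 the libraries of the groups did not overlap in CPM, as for 13159 of the 16395 tested genes.

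**Figure D1:**
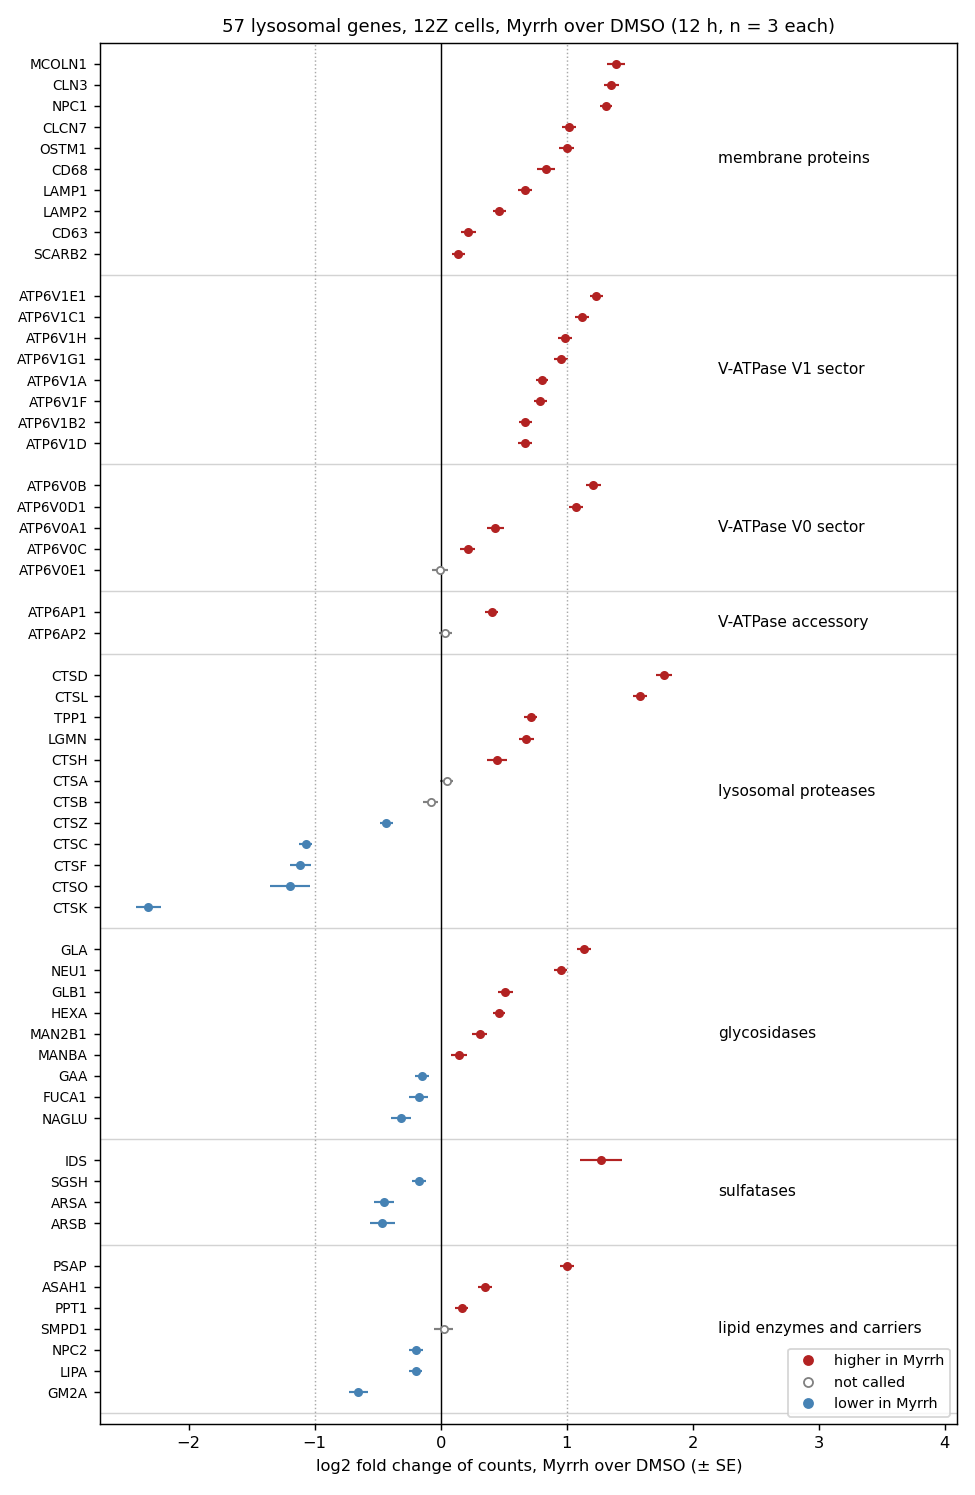
Log2 fold change of counts (x axis, Myrrh over DMSO, with its standard error as a bar) for each of the 57 genes, grouped by role, with dotted lines at a change of 2-fold. Filled points passed an adjusted p of 0.05 in edgeR's quasi-likelihood test, red higher and blue lower with Myrrh, and open points did not: all 10 membrane proteins and all 8 V1 subunits lie right of 0, and the hydrolases spread from -2.32 (CTSK) to 1.77 (CTSD).

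Measured per gene length, the 57 genes together took up 7829 ± 131 TPM with Myrrh and 5348 ± 103 TPM with DMSO (SD, n = 3 each), a ratio of 1.46. In summed TPM the 8 V1 genes of the 57 moved most, at 1185 ± 38.2 TPM with Myrrh and 606 ± 6.87 TPM with DMSO, a ratio of 1.95. By median log2 fold change the 10 membrane proteins stood slightly higher, at 0.92 against 0.88 for V1. The 10 membrane proteins summed to 1781 ± 19.7 TPM with Myrrh and 1281 ± 37.6 TPM with DMSO, and the 5 V0 genes of the 57 to 976 ± 26.8 and 702 ± 16.3 TPM, both a ratio of 1.39. The V0 ratio holds for these 5 genes and not for every V0 gene. Left out were TCIRG1, at 47.2 TPM with Myrrh and 140 TPM with DMSO, ATP6V0A2 (25.25 and 6.59 TPM) and ATP6V0E2 (13.4 and 16.8 TPM). Every Myrrh library lay above every DMSO library in each of these sums. The sulfatases were the exception among the roles, with 81.4 ± 9.82 TPM in Myrrh and 81.1 ± 0.975 TPM in DMSO libraries. At the single-gene level, CD63 was the most abundant of the 57 in both groups, with 892 ± 52.2 TPM with Myrrh and 777 ± 20.8 TPM with DMSO, and CTSO the least abundant in both, with 1.74 ± 0.241 and 3.68 ± 0.666 TPM.

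**Figure D2:**
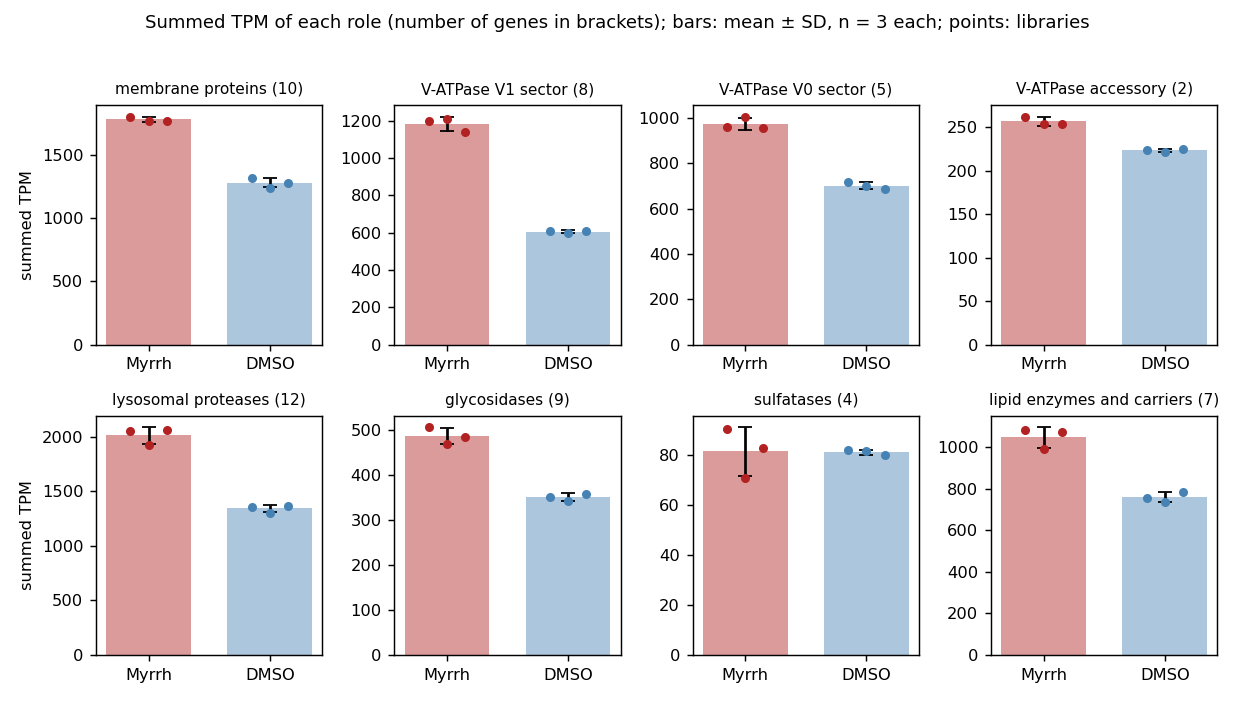
Summed TPM (y axis) of the genes of each role, with Myrrh left of DMSO, bars at the mean with its SD over 3 libraries and points for the single libraries. The V1 sector reached 1185 TPM with Myrrh and 606 TPM with DMSO, while the sulfatases stood at 81.4 and 81.1 TPM.

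Among the membrane proteins, the channel MCOLN1, which lets calcium and other cations out of the lysosome, rose most. The gene lies on the plus strand at chr19:7522626-7534009, and it had 29.9, 28.9 and 30.2 CPM in the Myrrh libraries, against 11.1, 11.3 and 11.6 CPM in the DMSO libraries. The groups were far apart, and the log2 fold change was 1.39 ± 0.073 (SE, adjusted p = 1.82e-15, edgeR's quasi-likelihood test). CLN3, a membrane protein lost in juvenile Batten disease and encoded at chr16:28474111-28495575 on the minus strand, had 80.0, 77.4 and 79.9 CPM in the Myrrh libraries, against 32.2, 31.6 and 29.1 CPM in the DMSO libraries. Its log2 fold change was 1.35 ± 0.058 (edgeR, adjusted p = 2.25e-17), and again no library of one group reached the other. NPC1, which exports cholesterol from the lysosome and is encoded at chr18:23506184-23586898 on the minus strand, had 198, 187 and 189.6 CPM in the Myrrh libraries, against 76.6, 77.8 and 77.0 CPM in the DMSO libraries. That is a log2 fold change of 1.31 ± 0.050 (edgeR, adjusted p = 2.60e-18) with a spread of a few percent within each group.

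CLCN7, which exchanges chloride for protons, and OSTM1, the partner it needs for stability, rose by nearly the same factor. CLCN7 had 231, 216 and 235 CPM in the Myrrh libraries, against 115, 118 and 104 CPM in the DMSO libraries, and OSTM1 averaged 73.1 ± 2.94 CPM with Myrrh and 36.6 ± 2.84 CPM with DMSO (SD, n = 3 each). Their log2 fold changes were 1.02 ± 0.057 and 1.0 ± 0.061, with adjusted p-values of 7.96e-15 and 4.36e-14 in edgeR's test. The LAMP proteins, which coat the inner face of the membrane, moved less. LAMP1 averaged 579 ± 34.7 CPM with Myrrh and 364 ± 15.8 CPM with DMSO, a fold change of 1.59, and LAMP2, which also serves in chaperone-mediated autophagy, rose 1.38-fold. Their relative CD68, best known from macrophages, rose 1.78-fold, at 56.5 ± 6.28 CPM with Myrrh and 31.6 ± 0.727 CPM with DMSO. The macrophage markers AIF1, CD163 and C1QA were at 0 as given above. CD14 was called lower, at 0.443 TPM with Myrrh and 2.53 TPM with DMSO, as was the leukocyte marker PTPRC, at 0.07 and 0.17 TPM. PTPRC had only 1, 4 and 0 counts in the Myrrh libraries and 19, 16 and 11 in the DMSO libraries. Its call ended with limma on log2(TPM + 1).

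CD63, a tetraspanin of lysosomes and exosomes, and SCARB2, the receptor that carries glucocerebrosidase to the lysosome, changed least of the 10. CD63 had 443, 516 and 451 CPM in the Myrrh libraries, against 416, 403 and 391 CPM in the DMSO libraries. The groups did not overlap, but the log2 fold change was only 0.22 ± 0.060 (edgeR, adjusted p = 0.00165), and that of SCARB2 was 0.14 ± 0.053 (edgeR, adjusted p = 0.0181). Scaling by library totals in place of TMM factors, which lowered the median log2 fold change of all tested genes by 0.14, ended the calls of both, with CD63 at 0.077 and SCARB2 at -0.0021, and so did a filter of at least 5 CPM in 3 libraries, with CD63 at 0.12 and SCARB2 at 0.042. The call of SCARB2 was also lost without DMSO replicate 1 (log2 fold change 0.12) and without DMSO replicate 2 (0.12).

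**Figure D3:**
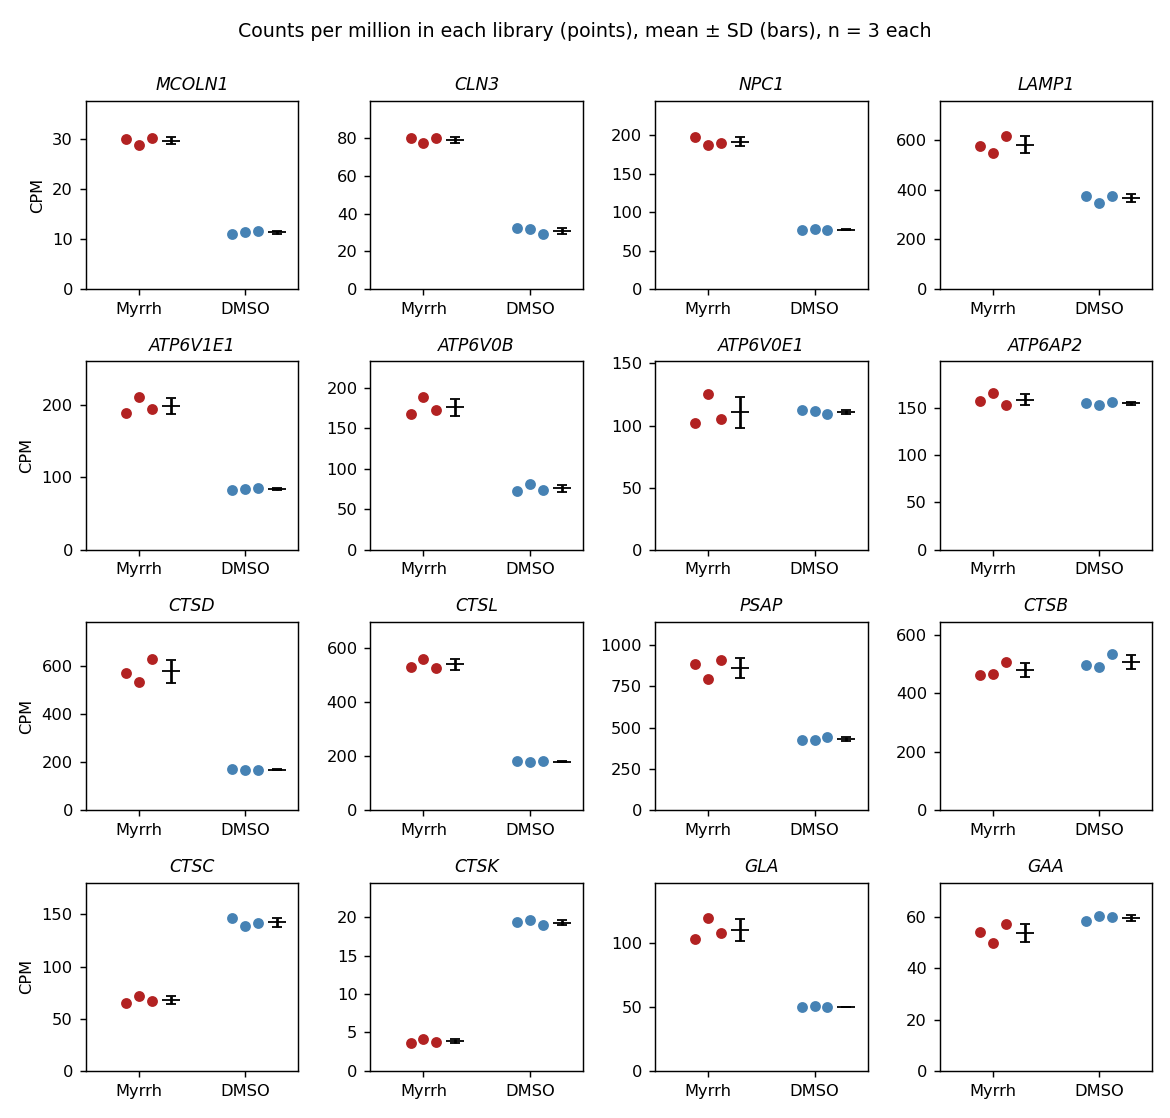
CPM (y axis, from 0) in each library for 16 of the genes, Myrrh left of DMSO, with the mean and SD over 3 libraries beside the points. The groups overlap for ATP6V0E1, ATP6AP2 and CTSB, and lie apart for the other 13, among them CTSD at 578 CPM with Myrrh and 169 CPM with DMSO and CTSK at 3.86 and 19.3 CPM.

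All 8 genes chosen here for the V1 sector of the V-ATPase were higher with Myrrh. Their log2 fold changes lay between 0.67 and 1.24, with a median of 0.88. Scarcer V1 genes outside the chosen set went either way. ATP6V1G2 (-2.73, at 0.347 TPM with Myrrh and 1.96 TPM with DMSO) and ATP6V1G3 (-3.56, at 0.26 and 2.55 TPM) were called lower. ATP6V1C2 (0.46) was called higher, and ATP6V1E2 (0.091) did not pass the test. ATP6V1E1, a subunit of the peripheral stalks that hold the head in place, had 189, 209.9 and 194 CPM in the Myrrh libraries, against 81.9, 84.1 and 85.6 CPM in the DMSO libraries. ATP6V1C1, which joins stalk and membrane sector, had 173, 182 and 159.9 CPM in the Myrrh libraries, against 75.2, 79.4 and 82.0 CPM in the DMSO libraries. Each of these 2 genes rose more than 2-fold, with log2 fold changes of 1.24 ± 0.054 (edgeR, adjusted p = 3.25e-17) and 1.12 ± 0.055 (edgeR, adjusted p = 4.55e-16). ATP6V1H, a regulatory subunit, had 83.3, 80.8 and 81.8 CPM with Myrrh and 42.8, 41.0 and 40.3 CPM with DMSO, and ATP6V1G1, the third stalk subunit, had 193, 216 and 192 CPM with Myrrh and 104, 104 and 102 CPM with DMSO. These 2 genes stood just under a doubling, with log2 fold changes of 0.99 ± 0.054 and 0.95 ± 0.055 (edgeR, adjusted p = 4.63e-15 and 1.29e-14). The head subunits that bind ATP rose less, ATP6V1A by 1.75-fold and ATP6V1B2 by 1.59-fold, as did the rotor subunits ATP6V1D, by 1.59-fold, and ATP6V1F, by 1.73-fold. ATP6V1F had 144, 163 and 144 CPM in the Myrrh libraries, against 87.2, 88.7 and 84.9 CPM in the DMSO libraries, and per length it was the most abundant V1 transcript, at 392 ± 12.1 TPM with Myrrh and 220.4 ± 1.0 TPM with DMSO.

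The V0 sector was uneven: 4 of the 5 genes chosen for it rose and ATP6V0E1 did not pass the test. ATP6V0B, which encodes a proteolipid of the rotating ring, had 167.3, 188 and 172 CPM in the Myrrh libraries, against 72.5, 80.7 and 74.2 CPM in the DMSO libraries. ATP6V0D1, which couples the ring to the V1 rotor and is encoded at chr16:67438014-67481237 on the minus strand, had 112, 109.9 and 122 CPM in the Myrrh libraries, against 55.8, 53.8 and 53.8 CPM in the DMSO libraries. Both rose more than 2-fold, with log2 fold changes of 1.21 ± 0.056 (edgeR, adjusted p = 1.41e-16) and 1.08 ± 0.054 (edgeR, adjusted p = 6.04e-16). ATP6V0C, the main proteolipid of the same ring, had 197, 224 and 209 CPM in the Myrrh libraries, against 191, 185 and 166.7 CPM in the DMSO libraries. It moved much less than ATP6V0B, with a log2 fold change of 0.22 ± 0.060 (edgeR, adjusted p = 0.0021), and the call ended under library totals (0.071) and under the filter of 5 CPM (0.12). Per length, ATP6V0C stood at 334 TPM with Myrrh and 289.6 TPM with DMSO and ATP6V0B at 276 and 111 TPM, so the levels of the 2 ring transcripts lay closer together with Myrrh. ATP6V0E1, a small membrane subunit, had 102, 125 and 105 CPM in the Myrrh libraries, against 112, 111 and 109 CPM in the DMSO libraries. The groups overlapped, with a log2 fold change of -0.0058 ± 0.063 (edgeR, adjusted p = 0.935). Myrrh replicate 2 held the highest value, and without it the log2 fold change was -0.10 and passed the threshold as lower (edgeR, adjusted p = 0.0439). With all 6 libraries it also passed as lower under library totals (-0.15, edgeR, adjusted p = 0.0212).

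The accessory genes also parted. ATP6AP1, which is needed for assembly of the pump, had 183, 193 and 185 CPM in the Myrrh libraries, against 139, 145 and 139 CPM in the DMSO libraries. ATP6AP2, known as the prorenin receptor, had 157, 164.9 and 153 CPM in the Myrrh libraries, against 155, 153 and 156 CPM in the DMSO libraries. The groups lay apart for ATP6AP1, with a log2 fold change of 0.40 ± 0.051 (edgeR, adjusted p = 7.66e-08), against 0.036 ± 0.051 (edgeR, adjusted p = 0.528) for ATP6AP2, whose groups overlapped.

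ATP6V0A1 encodes 1 of the isoforms of subunit a, the part of V0 through which the protons pass, and its paralogues ATP6V0A2 and TCIRG1, which are not among the 57, moved in opposite directions. ATP6V0A1 had 64.7, 54.6 and 65.1 CPM in the Myrrh libraries, against 43.5, 47.1 and 45.9 CPM in the DMSO libraries, a log2 fold change of 0.43 ± 0.065 (edgeR, adjusted p = 1.37e-06). ATP6V0A2, the isoform known from the Golgi and endosomes, had 56.9, 48.8 and 54.8 CPM in the Myrrh libraries, against 16.2, 16.1 and 17.5 CPM in the DMSO libraries, and its log2 fold change was 1.69 ± 0.070 (edgeR, adjusted p = 1.35e-17). TCIRG1, which encodes the a3 isoform of osteoclasts and late endosomes and lysosomes, had 55.3, 54.5 and 60.1 CPM in the Myrrh libraries, against 155, 156 and 141 CPM in the DMSO libraries, and its log2 fold change was -1.41 ± 0.055 (edgeR, adjusted p = 3.61e-18). Per length, TCIRG1 made up 43.8 ± 2.15% of the subunit a transcripts with Myrrh and 80.7 ± 1.08% with DMSO (SD, n = 3 each). ATP6V0A2 made up 23.3 ± 0.586% with Myrrh and 3.81 ± 0.227% with DMSO, and ATP6V0A1 32.8 ± 1.52% and 15.5 ± 1.04%. The sum of the subunit a genes was 108 ± 8.73 TPM with Myrrh and 173 ± 6.08 TPM with DMSO, so it was lower with Myrrh. The other V0 genes among the 57 that were called were higher. Outside the 57, ATP6V0E2 of subunit e was called lower (-0.35 ± 0.079, edgeR, adjusted p = 2.92e-04) and ATP6V0D2 of subunit d higher. In the other subunits with several genes the member named above held nearly all transcripts in both groups, for example ATP6V1G1 with 99.7% and 96.1% of subunit G and ATP6V0E1 with 94.3% and 93.0% of subunit e, with Myrrh given first in each pair. ATP6V0D2, the second gene for subunit d, was at 0 counts in all 3 DMSO libraries and at 18, 19 and 17 counts in the Myrrh libraries, or 0.442% of the subunit d transcripts there.

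**Figure D4:**
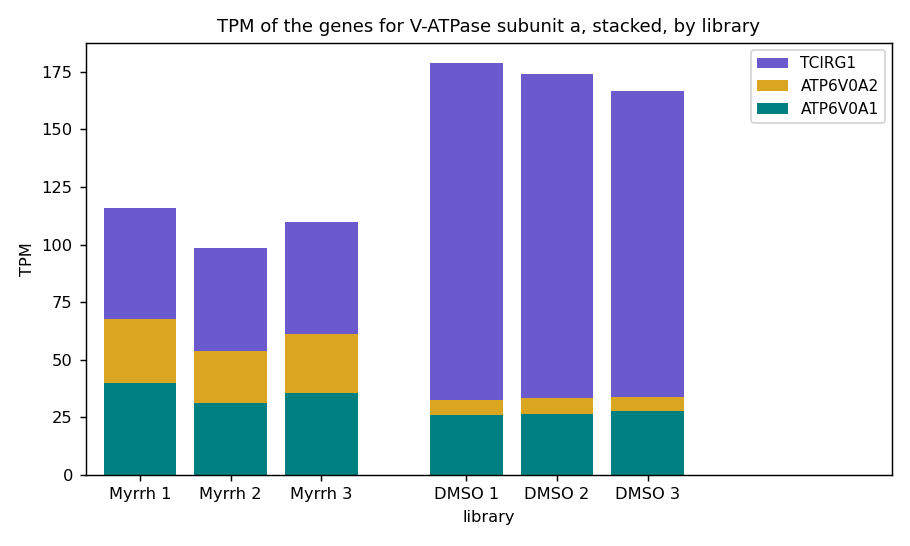
TPM (y axis) of the 3 expressed genes for V-ATPase subunit a, stacked for each library, Myrrh libraries left of DMSO libraries. TCIRG1 is at 44.9 to 49.0 TPM with Myrrh and 133 to 146 TPM with DMSO, while ATP6V0A2 is at 22.6 to 27.8 and 6.27 to 7.05 TPM.

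The hydrolases had the widest range, with 46.9% higher and 43.8% lower, and the proteases held both ends of it: 5 of 12 rose, 5 fell and 2 did not pass, so that the shares in either direction, 41.7% each, were near the 39.3% and 39.1% of all tested genes. CTSD, the main aspartic protease of the lysosome, is encoded at chr11:1752752-1764573 on the minus strand and had 571, 533 and 629 CPM in the Myrrh libraries, against 172, 166.4 and 169 CPM in the DMSO libraries. CTSL, a cysteine endopeptidase encoded at chr9:87725519-87731393 on the plus strand, had 530.2, 561 and 527 CPM in the Myrrh libraries, against 182, 177 and 181 CPM in the DMSO libraries. In both genes every Myrrh library lay far above the DMSO libraries, with log2 fold changes of 1.77 ± 0.061 (edgeR, adjusted p = 2.87e-19) and 1.58 ± 0.055 (edgeR, adjusted p = 3.62e-19). TPP1, a tripeptidyl peptidase, rose 1.64-fold, the asparaginyl endopeptidase LGMN 1.60-fold and the aminopeptidase CTSH 1.36-fold. At the other end, CTSK, the collagen-degrading cathepsin of osteoclasts, had 3.69, 4.17 and 3.71 CPM in the Myrrh libraries, against 19.3, 19.6 and 18.9 CPM in the DMSO libraries. CTSO, a little-studied cysteine protease, had 2.89, 2.87 and 3.29 CPM in the Myrrh libraries, against 6.48, 5.76 and 8.47 CPM in the DMSO libraries. These were log2 fold changes of -2.32 ± 0.10 (edgeR, adjusted p = 2.18e-17) and -1.20 ± 0.16 (edgeR, adjusted p = 1.14e-07), both at low levels with DMSO, 10.3 TPM for CTSK and 3.68 TPM for CTSO.

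CTSC, the dipeptidyl peptidase that activates granule serine proteases, averaged 67.8 ± 3.66 CPM with Myrrh and 142 ± 3.91 CPM with DMSO, and CTSF, another cysteine protease, 8.83 ± 0.351 CPM with Myrrh and 19.1 ± 0.275 CPM with DMSO. CTSC fell to 0.476 and CTSF to 0.463 of the DMSO level (log2 fold changes -1.07 ± 0.052 and -1.11 ± 0.083), and the carboxypeptidase CTSZ fell less, by 0.43 on the log2 scale. The stromal markers that fell with Myrrh fell beside CTSK, with COL1A1 at 208 TPM with Myrrh and 1444 TPM with DMSO, and their part in the cathepsin values was not tested. CTSB, per length the most abundant cathepsin transcript with DMSO, had 463, 468 and 507 CPM in the Myrrh libraries, against 498, 489 and 533 CPM in the DMSO libraries. CTSA, a carboxypeptidase that also protects other enzymes, had 284, 278 and 287 CPM in the Myrrh libraries, against 283, 271 and 268 CPM in the DMSO libraries. In both the groups overlapped, with log2 fold changes of -0.080 ± 0.057 (edgeR, adjusted p = 0.196) and 0.047 ± 0.053 (edgeR, adjusted p = 0.423); with library totals (-0.22), and with the filter of 5 CPM (-0.18), CTSB passed as lower.

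Of the 9 glycosidases, 6 rose and 3 fell. GLA, the alpha-galactosidase missing in Fabry disease, had 103, 119 and 108 CPM in the Myrrh libraries, against 50.1, 50.4 and 50.1 CPM in the DMSO libraries. NEU1, the lysosomal sialidase, had 86.8, 90.3 and 87.8 CPM in the Myrrh libraries, against 46.7, 45.5 and 44.9 CPM in the DMSO libraries. Their libraries lay about a doubling apart, with log2 fold changes of 1.14 ± 0.057 (edgeR, adjusted p = 6.00e-16) and 0.95 ± 0.053 (edgeR, adjusted p = 6.27e-15). GLB1, the beta-galactosidase that forms a complex with NEU1 and CTSA, had 70.6, 66.0 and 73.7 CPM with Myrrh and 47.1, 49.1 and 51.1 CPM with DMSO, a log2 fold change of 0.51 ± 0.057 (edgeR, adjusted p = 8.06e-09). The 3 genes of that complex thus stood at log2 fold changes of 0.95 for NEU1, 0.51 for GLB1 and 0.047 for CTSA. HEXA, the alpha chain of hexosaminidase A, had 170.1, 167.4 and 169.8 CPM with Myrrh and 123, 120.4 and 125 CPM with DMSO, and its log2 fold change was 0.46 ± 0.050 (edgeR, adjusted p = 3.83e-09). The mannosidases MAN2B1 and MANBA rose by 0.31 and 0.15 on the log2 scale, and NAGLU, which cleaves heparan sulfate, fell by 0.31. GAA, the glucosidase that digests glycogen, averaged 53.8 ± 3.61 CPM with Myrrh and 59.6 ± 1.10 CPM with DMSO, and FUCA1, a fucosidase, 16.3 ± 0.245 CPM with Myrrh and 18.4 ± 0.471 CPM with DMSO. Both were called lower by a narrow margin (log2 fold changes -0.15 and -0.17, edgeR, adjusted p = 0.0225 and 0.0365). Leaving out a library ended the call of GAA for Myrrh 2, DMSO 2 or DMSO 3 (-0.15 to -0.10), that of FUCA1 for every library but Myrrh 2 (-0.19 to -0.15), and that of MANBA for Myrrh 1, DMSO 1 or DMSO 2 (0.13 to 0.14). The call of MANBA also ended with library totals (0.0032), the filter of 5 CPM (0.047), limma on log2(TPM + 1) (0.028) and DESeq2 (0.14), that of FUCA1 with DESeq2 (-0.18), without a filter (-0.14) and with limma (-0.12), and that of GAA without a filter (-0.12). With limma the call of MAN2B1 ended too (0.16), as did that of NAGLU over every gene above 0 (-0.29).

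Among the sulfatases, IDS, which removes sulfate from dermatan and heparan sulfate, rose, and the other 3 fell. IDS had 95.6, 79.4 and 92.4 CPM in the Myrrh libraries, against 41.0, 29.2 and 41.0 CPM in the DMSO libraries. The DMSO libraries were uneven, replicate 2 being the lowest, and the log2 fold change was 1.27 ± 0.17 (edgeR, adjusted p = 0.0013). IDS has a nearby pseudogene, and its estimated counts were not whole numbers in at least 1 library, so part of its reads was shared out by the authors' estimate. ARSA, which splits sulfatide, had 20.1, 18.1 and 20.1 CPM with Myrrh and 27.7, 28.6 and 23.4 CPM with DMSO, and ARSB, which acts on dermatan sulfate, had 9.52, 8.02 and 7.80 CPM with Myrrh and 11.4, 11.3 and 12.2 CPM with DMSO. SGSH, a heparan sulfate sulfatase, had 54.3, 53.4 and 56.2 CPM with Myrrh and 62.5, 63.8 and 58.3 CPM with DMSO. No Myrrh library of these 3 reached the DMSO range, and the log2 fold changes were -0.45 ± 0.080, -0.46 ± 0.10 and -0.17 ± 0.056 (edgeR, adjusted p = 1.54e-05, 1.63e-04 and 0.00757). On the TPM scale the ARSB groups overlapped, at 3.75 ± 0.780 TPM with Myrrh and 3.69 ± 0.159 TPM with DMSO, and its difference in log2(TPM + 1) was 0.0056.

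The lipid enzymes and carriers showed partners that parted. PSAP, the precursor of the saposins that present lipids to their hydrolases, had 886, 795 and 909.9 CPM in the Myrrh libraries, against 424, 422 and 446 CPM in the DMSO libraries. Its level doubled, with a log2 fold change of 1.0 ± 0.058 (edgeR, adjusted p = 1.56e-14), and per length it was the second most abundant of the 57 with Myrrh, at 580.5 ± 43.7 TPM against 291 ± 10.8 TPM with DMSO. GM2A, the activator that hands a ganglioside to hexosaminidase A, had 14.2, 14.2 and 14.9 CPM in the Myrrh libraries, against 22.3, 23.0 and 22.7 CPM in the DMSO libraries. It fell, with a log2 fold change of -0.65 ± 0.074 (edgeR, adjusted p = 9.61e-09), while HEXA rose. NPC2, the soluble carrier that passes cholesterol to NPC1, averaged 78.6 ± 6.41 CPM with Myrrh and 90.1 ± 0.339 CPM with DMSO, a log2 fold change of -0.20 ± 0.056 (edgeR, adjusted p = 0.00237), while NPC1 rose 2.48-fold. LIPA, the acid lipase, had 73.4, 70.0 and 70.7 CPM with Myrrh and 80.9, 79.5 and 85.2 CPM with DMSO, and ASAH1, the acid ceramidase, had 68.7, 64.4 and 62.1 CPM with Myrrh and 51.3, 51.8 and 50.3 CPM with DMSO. LIPA was thus slightly lower and ASAH1 slightly higher with Myrrh, with log2 fold changes of -0.20 ± 0.052 (edgeR, adjusted p = 0.00132) and 0.35 ± 0.056 (edgeR, adjusted p = 3.19e-06). The call of LIPA ended with limma on log2(TPM + 1) (-0.15). PPT1, a palmitoyl thioesterase, rose by 0.17 on the log2 scale, a call that ended with library totals (0.025), with the filter of 5 CPM (0.069) and without DMSO replicate 1 (0.15). SMPD1, the acid sphingomyelinase, had 24.2, 23.5 and 28.6 CPM in the Myrrh libraries, against 24.4, 24.7 and 25.8 CPM in the DMSO libraries, with overlapping groups and a log2 fold change of 0.023 ± 0.074 (edgeR, adjusted p = 0.786).

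Although nearly as many hydrolases fell (14) as rose (15), their summed level was higher with Myrrh, at 3630 ± 151 TPM, against 2535 ± 64.2 TPM with DMSO, a ratio of 1.43. CTSD, CTSL and PSAP, picked here after their values were seen, held 43.6 ± 0.535% of that sum with Myrrh and 24.3 ± 0.0796% with DMSO. The other 29 genes summed to 2046 ± 73.1 TPM with Myrrh and 1919 ± 47.0 TPM with DMSO. Across the 57 genes, the log2 fold change and the DMSO level in TPM had a Spearman correlation of 0.157, given as a description over genes that share the same libraries.

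Set against the promoter motifs shown at the start, 10 of the 13 genes with CACGTG were higher with Myrrh, 2 were lower and CTSA did not pass. Of the 27 genes with a window and no motif, 18 were higher, 7 were lower and 2 did not pass. The median log2 fold change was 0.95 with the motif and 0.40 without it. Over all tested genes with a window the same medians were 0.16 and 0.05. Of all 16395 tested genes, 39.3% were called higher and 39.1% lower, and of the 57 genes 66.7% and 24.6%. The calls over all tested genes were not counted by motif. A rise of at least 2-fold was found in 6 of the 13 genes with CACGTG and in 6 of the 27 without it. Among the 11438 tested genes with a window, it was found in 162 of the 1134 with the motif. It was found in 1184 of those without it. Single genes went either way: CTSL, NPC1, IDS, ATP6V1E1, GLA and OSTM1 rose at least 2-fold with no copy in the window, while GAA, with 2 copies of the longer motif, was called lower and CTSF, with 2 copies of the shorter, fell. CTSA, with 1 copy of each form, did not pass the test.

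**Figure D5:**
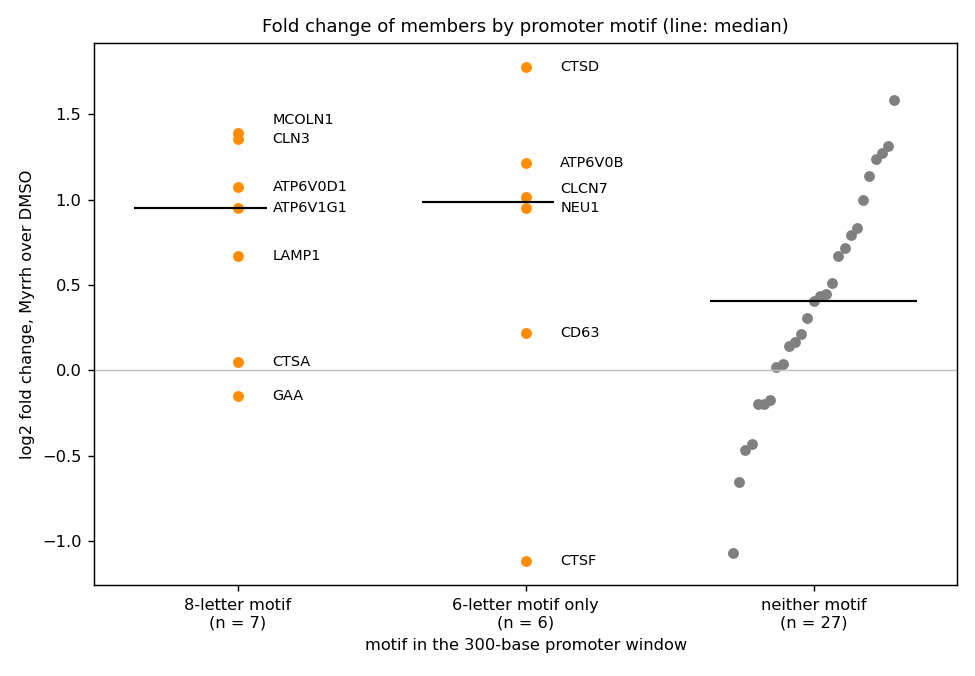
Log2 fold change (y axis, Myrrh over DMSO) of the 40 genes with a RefSeq promoter window, by the motif found in the window (x axis), 1 point per gene with a line at the median. The 7 genes with the longer motif run from GAA at -0.15 to MCOLN1 at 1.39, and the 27 with neither motif have a median of 0.40.

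Genes around these 57, taken from lists by function, are given by counts and by up to 2 of the highest and 2 of the lowest called genes of each, to be read against the 39.3% of all tested genes that were higher and the 39.1% that were lower. Of 26 other lysosomal enzymes tested, 7 were higher (26.9%) and 13 lower (50%) with Myrrh, with the phosphatase ACP2 (0.70 ± 0.069) among the highest and CTSS (-2.06 ± 0.31) and the hyaluronidase HYAL1 (-2.52 ± 0.39) lowest, the last 2 at levels under 2 TPM. Of 22 other membrane proteins, 15 were higher (68.2%) and 6 lower (27.3%), led by the amino acid transporter SLC36A1 (1.55 ± 0.085) and by TMEM192 (1.55 ± 0.076), with the cation channels TMEM175 (-1.15 ± 0.080) and TPCN1 (-1.57 ± 0.063) lowest. Of 9 genes for V-ATPase assembly and its regulators, 4 were higher and 4 lower (44.4% each), near the shares of all tested genes, with TMEM199 (1.50 ± 0.070) and WDR7 (0.55 ± 0.094) highest and VMA21 (-0.46 ± 0.055) and DMXL2 (-0.84 ± 0.066) lowest.

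Of 15 genes of the machinery that tags and sorts hydrolases, 4 were higher (26.7%) and 9 lower (60%), against 39.3% and 39.1% of all tested genes. Both mannose 6-phosphate receptors rose, M6PR by 0.81 ± 0.053 and IGF2R by 0.58 ± 0.062 on the log2 scale. The adaptor GGA1 (-0.88 ± 0.058) and the receptor SORT1 (-0.77 ± 0.10) were lowest. Among 15 genes of MiT/TFE factors and of Rag and Ragulator proteins, which tie these factors to amino acid supply, 7 were higher (46.7%) and 3 lower (20%). RRAGD rose most, with 7.59, 7.08 and 6.29 CPM in the Myrrh libraries, against 0.295, 0.208 and 0.216 CPM in the DMSO libraries, a log2 fold change of 4.85 ± 0.23 (edgeR, adjusted p = 1.53e-16), followed by RRAGC (1.47 ± 0.058), while LAMTOR5 (-0.40 ± 0.065) and RRAGA (-0.33 ± 0.064) were lowest. Of the factors themselves, named here for their role, TFE3 rose (0.88 ± 0.052, at 73.3 TPM with Myrrh and 40.5 TPM with DMSO), and TFEB (-0.12) and MITF (-0.14) did not pass the test at under 4 TPM in either group. Among 14 genes of the response to lysosomal damage, 8 were higher (57.1%) and 1, the galectin LGALS1 (-0.81 ± 0.065), lower (7.14%), with the autophagy receptor SQSTM1 (2.76 ± 0.057) and PLAA (1.83 ± 0.060) highest. Of the cystatins, which inhibit cysteine cathepsins, CSTB rose (0.30 ± 0.058) and CST3 fell (-0.36 ± 0.057).

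Whether reads were counted by strand is not stated in the sources used here, and 21 of the 57 genes share exon sequence with a gene on the opposite strand, among them CTSD, CLN3, NPC1, CLCN7, TPP1 and ATP6V0B. Without the 21, the median log2 fold change was 0.67 for the membrane proteins, 0.55 for the V-ATPase genes and -0.15 for the hydrolases. With all genes of each role it was 0.92, 0.79 and 0.035, in that order. Estimated counts were not whole in at least 1 library for 17 of the 57 genes, among them MCOLN1, CLN3, NPC1, CLCN7 and CTSD. Of the 10 membrane proteins, 5 were among the 17. Without the 17, the median log2 fold change was 0.46 for the membrane proteins and -0.17 for the hydrolases. The lowest count of any of the 57 in any library was 64.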

How the data were processed

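RNA from 12Z cells was sequenced in 3 libraries with Myrrh and 3 with DMSO; libraries came from total RNA with a TruSeq kit, per the labels' protocols. The authors deposited estimated counts per gene, unscaled between libraries, made with STAR and RSEM 1.3.1 on GRCh38 per the submitters' processing notes, and a second table of log2(TPM + 1), which the authors computed from TPM. Estimated counts were rounded, filtered with filterByExpr and tested over all 16395 remaining genes with edgeR 4.0.16 (glmQLFit with robust estimation, TMM factors of 0.933 to 0.973 for Myrrh and 1.05 for DMSO, R 4.3.3), two-sided, at an adjusted p of 0.05. CPM values use TMM-scaled library sizes. A fold change comes from counts, and TPM, recovered from the log2 values, serves for levels between genes. Standard errors are the log2 fold change over the root of F. Within groups, chi-square per degree of freedom was 3.85 to 9.19, so no pair of libraries agreed within sampling noise.

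The members and lists were chosen with earlier results of these data known. Values per library are given for up to 4 called genes per role with the largest change and no overlap, for the most abundant gene and for each gene not called; others are named with means. Alternatives were other scalings, filters and tools (limma 3.58.1, DESeq2 1.42.0), a replicate block and leaving out each library. The code was tested on simulated data. Gene positions are from GENCODE on GRCh38, and promoter sequences are from RefSeq (GRCh38.p14). Values of some genes on the lists are not reported here.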

Additional observations from a re-analysis of the deposited data

How the results depend on the processing

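Of the 57 genes, 44 kept their call (higher, lower or not passed) in all 15 alternatives. Of these, SMPD1 and ATP6AP2 passed in none but changed sign on log2(TPM + 1), to -0.18 and -0.012. The causes of the changes were not tested unless stated. In the main fit, 14 lysosomal genes were higher at 2-fold: 4 V-ATPase genes, 5 membrane proteins and 5 hydrolases. Its medians were 0.45 (all 57), 0.79 (V-ATPase), 0.92 (membrane proteins) and 0.035 (hydrolases). Library totals lowered the median of all tested genes by 0.14 (log2), and the share of higher calls was 41.8%, against 50.1% with TMM; the counts at 2-fold were then 8 higher lysosomal genes, 2 V-ATPase genes, 3 membrane proteins and 3 hydrolases, 1 V-ATPase gene was lower, and medians were 0.30 (all 57), 0.65 (V-ATPase), 0.78 (membrane proteins) and -0.11 (hydrolases), with SCARB2 at -0.0021. A filter of at least 5 CPM in 3 libraries gave medians of 0.35, 0.69, 0.82 and -0.064 in that order and 3 membrane proteins at 2-fold; no filter gave 0.48 for all 57. With limma on log2(TPM + 1), which compresses low genes, 1 gene, a hydrolase, fell 2-fold on either gene set, and ARSB stood at 0.0056 on both. With members that overlap no opposite-strand exon, chosen after seeing the data, medians were 0.36, 0.55, 0.67 and -0.15, and with members of whole counts 0.31 for all 57, 0.46 for membrane proteins and -0.17 for hydrolases. The median of the hydrolases thus has no stable sign. In shares of counts in place of TPM, the ratios of Myrrh to DMSO were 1.35 (all 57), 1.43 (V-ATPase), 1.37 (membrane proteins) and 1.3 (hydrolases).

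Leaving out 1 library gave medians of 0.42 to 0.47 (all 57), 0.73 to 0.83 (V-ATPase) and -0.0022 to 0.068 (hydrolases), 0 to 1 lower V-ATPase genes, and a ratio of 1.37 to 1.41 for membrane proteins. The labels do not pair the libraries, and same-numbered libraries did not deviate together (correlations -0.060 to 0.036; 1 of 6 libraries was closest to its own number). With a replicate block, 38 lysosomal genes were higher and 13 lower, FUCA1 being the call lost (edgeR, adjusted p = 0.0516). The 13 genes with a changed call had log2 fold changes between -0.46 (ARSB) and 0.31 (MAN2B1); the part of depth in this was not tested.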
